A study of Mus musculus with 22 samples.

Results

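Galanin and its receptors are 4 genes, the neuropeptide precursor Gal and the receptor genes Galr1, Galr2 and Galr3, out of 53379 genes in the deposited count table. They were taken as the rows whose Ensembl identifiers carry these symbols in the GENCODE mouse annotation, each symbol having 1 row, and all 4 passed the filter on low counts. The mRNAseq libraries came from the left hippocampi of adult male C57/BL6N mice, on the side opposite to a suprahippocampal injection, removed 24 h after the injection. The design text of the series and the study give the left side, whereas the extraction protocol in the labels names the right, so the side rests on the former. Kainate, an agonist of glutamate receptors that induces status epilepticus, was given to 8 mice, and the 8 sham mice received NaCl. For the kainate model the paper kept only animals that showed convulsive seizures. The hippocampi of each treatment were pooled from 4 or 2 mice into 3 samples, so that libraries average unequal numbers of mice. Sorting for NeuN, a protein of neuronal nuclei encoded by Rbfox3, gave a NeuN+ fraction (neurons) and a NeuN- fraction (glia and other cells). The fractions yielded 3 kainate NeuN+, 3 sham NeuN+, 3 kainate NeuN- and 2 sham NeuN- libraries. Libraries are named by their group and the replicate number of the labels.

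Galanin is cut from a longer precursor, stored in dense core vesicles and released mainly under strong neuronal firing. Its receptors are coupled to G proteins: GALR1 and GALR3 act mainly through the inhibitory Gi/o family, which lowers cyclic AMP and opens potassium channels, while GALR2 also couples to Gq and phospholipase C. In the hippocampus galanin reduces glutamate release, and it is known as an anti-seizure peptide that reaches the hippocampus largely in fibers from other brain regions.

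The libraries held between 12058875 and 45428465 counts. Values are given as counts and as CPM, which are counts scaled to a common library size by the TMM method, and levels of different genes are compared as CPM per kb of exon. One gene of each list of related genes is named for having the highest CPM averaged over all 11 libraries, which is a rule for naming and no comparison of levels. The 6 neuron markers Rbfox3, Snap25, Syt1, Slc17a7, Gad1 and Gad2 summed to between 2835 and 6646 CPM in NeuN+ and between 465 and 745 CPM in NeuN- libraries, so the NeuN- fraction also held neuronal RNA. The libraries kainate NeuN- replicate 2 and sham NeuN- replicate 1 had an RNA input of 0.05 ng, amplified over 15 PCR cycles, where the other 9 had 1 ng and 10 cycles. In bulk nuclei, fewer cells of a type and less RNA per cell cannot be told apart. The labels do not say that pools with one replicate number share a day or litter. The paper's methods describe sequencing on different instruments, with single or paired-end reads, and do not say which library was run on which. A gene was called at a false discovery rate (FDR, the p of edgeR's quasi-likelihood test adjusted over 40714 genes by the Benjamini-Hochberg method) below 0.25, the threshold of the study.

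Gal spans chr19:3409915-3414544 on the minus strand of the GRCm38 (mm10) assembly, with 2 annotated transcripts and 788 exon bases. Because Gal was the member that changed with kainate, the bases upstream of its start are shown. The RefSeq table (GRCm38.p6) held a promoter window for 2 of the 4 genes, Gal and Galr2. The 250 bases before the start of Gal, chr19:3414545-3414794 on the minus strand, read 5′ to 3′:
Gal promoter: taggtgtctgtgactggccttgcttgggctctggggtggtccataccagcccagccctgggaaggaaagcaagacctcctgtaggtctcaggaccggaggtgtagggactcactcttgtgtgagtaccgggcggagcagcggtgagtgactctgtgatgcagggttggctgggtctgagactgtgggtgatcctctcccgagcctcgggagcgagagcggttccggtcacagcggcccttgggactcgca
Of these bases 62.4% were G or C, and 11 CG pairs were present. The whole window of 300 bases, which adds 50 bases after the start, was searched on both strands for the cyclic AMP response element TGACGTCA, its core TGACG, the AP-1 site TGACTCA and the STAT site TTCNNNGAA. The full response element contains the core. Of these, the core alone was found for Gal, once, beginning 20 bases after the annotated start, so no letter above is in capitals. Of the 32851 windows of this length in the table, 20.8% held the core, 1.79% the full response element, 5.2% the AP-1 site and 8.3% the STAT site. A match is a description of letters and not of binding, and these letters being absent from the window says nothing about the factors.

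The 3 receptor genes lie on other chromosomes of the same assembly. Galr1 spans chr18:82392380-82406777 on the minus strand with 2987 exon bases, and Galr2 spans chr11:116280939-116283938 on the plus strand with 2456 exon bases. Galr3 spans chr15:79041885-79043558 on the plus strand with 1245 exon bases. Of these, 363 are shared with the 3′ end of Gcat on the same strand, where reads cannot be given to either gene, so the level of Galr3 is uncertain.

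Gal was the lowest per kb of the 15 neuropeptide genes listed here in sham neurons and was 53.6-fold higher in kainate neurons. In kainate NeuN+ replicates 1, 2 and 3 it had 423, 785 and 464 counts, or 30.1, 20.0 and 20.9 CPM. In sham NeuN+ replicates 1, 2 and 3 it had 2, 14 and 22 counts, or 0.134, 0.402 and 0.709 CPM. Every kainate library was thus far above every sham library, and Gal was the only 1 of the 4 genes whose groups did not overlap in this comparison, as 7.86% of all genes tested did not. The mean was 23.7 ± 5.58 CPM in kainate and 0.415 ± 0.288 CPM in sham neurons (SD, n = 3 each). The log2 fold change was 5.74 (SE 0.80, 95% confidence interval 4.02 to 7.47), which is the fold given above, and Gal was called (FDR = 0.0354). Of the 4 genes 1 was called, against 0.165% of all genes. By p Gal ranked 5 among the 40714 genes, and by log2 fold change 3. Pairs of kainate and sham libraries with one number gave a 49.8-fold increase for number 2 and a 29.5-fold increase for number 3, while number 1 had too few sham counts for a ratio. The call was lost when a single library was left out: without sham NeuN+ replicate 2 the log2 fold change was 5.69 and the FDR 0.458, with 5 genes called in all in place of 67. In the other 10 fits with a library left out the FDR lay between 0.000323 and 0.2125.

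**Figure D1:**
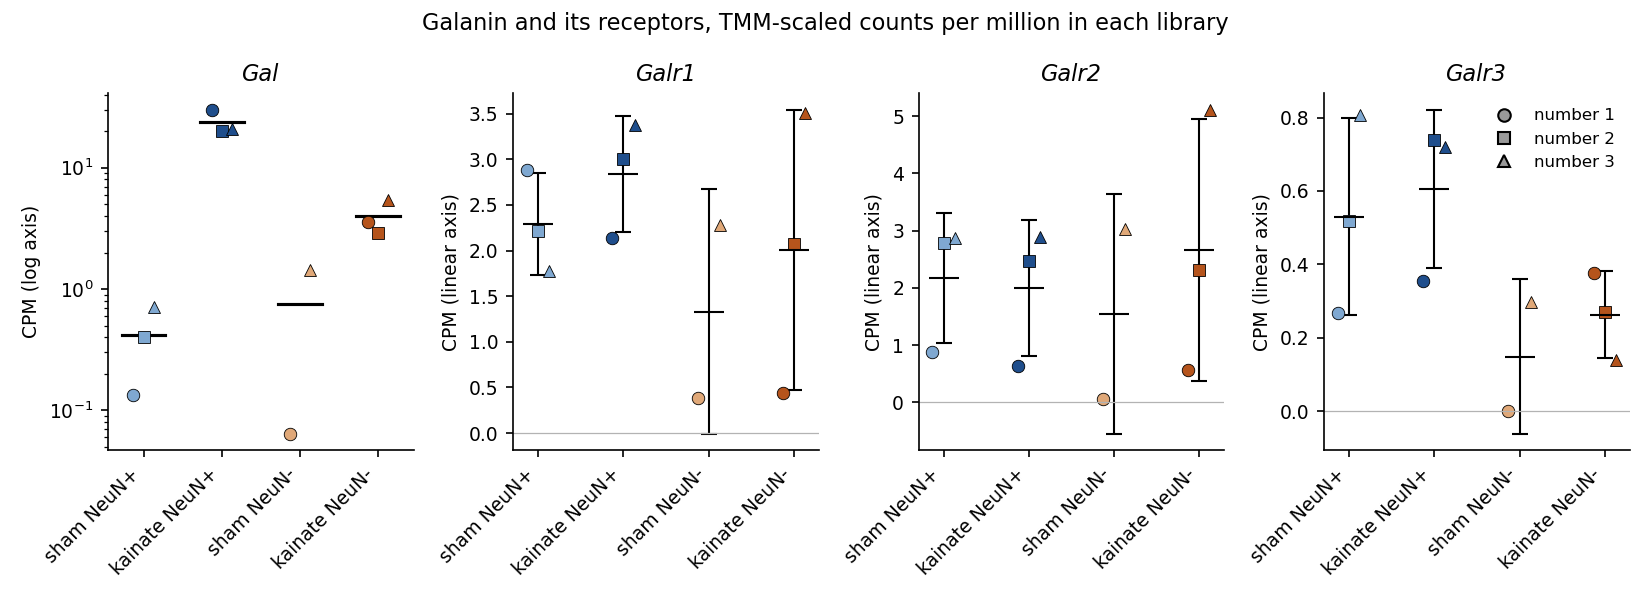
TMM-scaled CPM of Gal (log axis), Galr1, Galr2 and Galr3 (linear axes) in each of the 11 libraries, by group. The marker shape is the replicate number, black lines are group means and, for the receptors, error bars are the SD (n = 3, or 2 for sham NeuN-). Gal in kainate neurons lay between 20.0 and 30.1 CPM against 0.134 to 0.709 in sham neurons, whereas the receptor values of kainate and sham libraries overlapped in both fractions.

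Summed markers of astrocytes and microglia were also higher in every kainate than in every sham NeuN+ library. The 4 astrocyte genes summed to between 234 and 350 CPM in kainate and between 134 and 188 CPM in sham NeuN+ libraries, with none at 0 in a group. None of them was called, 2 had an unadjusted p below 0.05, DESeq2 called 1, and all 4 were called as higher with the replicate number as a block, a fit that called 5.09% of all genes. The 4 microglia genes summed to between 29.3 and 45.4 CPM in kainate and between 22.8 and 25.5 CPM in sham NeuN+ libraries, with none at 0 in a group and none called, 1 at an unadjusted p below 0.05 and 0 called by DESeq2. With the block Csf1r was called as higher (1.12), whereas P2ry12 was called as lower (-0.63). Their part in the Gal result was not tested. The neuron markers overlapped between kainate (2835 to 5794 CPM) and sham (3123 to 6646 CPM) neurons. Of these 6, 0 were called by either tool or had an unadjusted p below 0.05, but Gad1 and Gad2, the markers of GABA neurons, were called as higher with the block (0.61 and 0.60 on the log2 scale). Neurons rich in galanin are found in the hypothalamus and locus coeruleus. The summed level of 9 genes that mark such sites, among them Hcrt, Pmch, Oxt and Dbh, was 8.32 to 16.6 CPM in kainate and 8.997 to 12.8 CPM in sham neurons, with none at 0 in a group. Of the 8 that passed the filter 0 were called by either tool, 0 had an unadjusted p below 0.05, and 1 was called as higher with the block, against the same 5.09%.

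In glia the same direction was seen at a lower level. Gal had 57, 85 and 194 counts in kainate NeuN- replicates 1, 2 and 3, or 3.57, 2.88 and 5.45 CPM. In sham NeuN- replicates 1 and 3 it had 1 and 29 counts, or 0.0639 and 1.44 CPM. The groups did not overlap, as was the case for 8.22% of all genes, and for none of the 3 receptors. The mean was 3.97 ± 1.33 CPM in kainate (SD, n = 3) and 0.751 ± 0.972 CPM in sham glia (SD, n = 2). The log2 fold change of 2.36 (SE 0.82, 95% confidence interval 0.59 to 4.13), or 5.12-fold, did not pass the threshold in edgeR's quasi-likelihood test (FDR = 1.00), where 0 of the 4 genes and 0.101% of all genes were called. Gal alone had an unadjusted p below 0.05, and DESeq2's Wald test called it (FDR = 0.232) but gave the 3 receptors no adjusted p at their low counts. When each replicate number was fitted as a block in its fraction, the log2 fold change was 2.78 (95% confidence interval 1.78 to 3.78) and Gal was called (FDR = 0.000144), as were 5.79% of all genes, although only 2 numbers have both a kainate and a sham library in this fraction. The size of the difference varied with the sham library that was left out. Without sham NeuN- replicate 1, which had the low RNA input, the log2 fold change was 1.49, and without sham NeuN- replicate 3 it was 5.84 (FDR = 0.153). Without both libraries of low input it was 1.67 (FDR = 1.00).

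The block also narrowed the interval in neurons, where the log2 fold change of Gal was 5.68 (95% confidence interval 4.85 to 6.51, FDR = 3.24e-15). In that fit 5.09% of all genes were called and again 1 of the 4. The block left 3 residual degrees of freedom, and the test used 51.0 after the spread was shared across genes, so its p-values rest mostly on that sharing.

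The NeuN- fraction held neuronal RNA, and Gal was set beside neuron markers within each pool. In the 3 kainate pools, Gal in the NeuN- library was 11.9%, 14.4% and 26.1% of its CPM in the NeuN+ library for numbers 1, 2 and 3. For Rbfox3, which encodes NeuN, the same shares were 10.9%, 18.1% and 22.9%. For the synaptic genes they were 17.5%, 24.6% and 25.4% (Snap25) and 8.75%, 14.8% and 20.3% (Syt1). For Gad1, the enzyme that makes GABA, they were 23.2%, 29.8% and 33.7%. For Slc17a7, the vesicular glutamate transporter of excitatory neurons, they were 3.65%, 14.1% and 15.3%, and for Gad2 24.6%, 21.6% and 31.0%. The share of Gal thus lay within the range of these 6 markers in each kainate pool, and in the pool numbered 2 Slc17a7 alone was below it. In the sham pool numbered 3, Gal in the NeuN- library was 203% of its NeuN+ level, from 29 and 22 counts, where the 6 neuron markers lay between 10.0% and 35.5%. The share of Gal in that pool was thus above the neuron markers, and the sham pool numbered 1 had too few counts for a share. The part of neuronal RNA in the NeuN- values of Gal was not tested. Galr2 in NeuN- libraries was 88.2%, 93.3% and 177% of its NeuN+ level in the kainate pools, above the neuron markers in each of them. In the sham pools it was 7.32% (number 1, from 1 count in the NeuN- library) and 105% (number 3), within and above the range of the markers. Galr1 was at 20.6%, 68.8% and 104%, within the range of the markers in the first pool and above it in the other two, and at 13.3% and 129% in the sham pools, likewise within and above it. Galr3 was at 106%, 36.7% and 19.5%, within that range in the pool numbered 3 and above it in the other two, but these shares rest on 5 to 8 counts in the NeuN- libraries. The summed level of Ttr, Folr1 and Kl, listed as choroid plexus markers, was also higher in every kainate than in every sham NeuN- library. Ttr and Folr1 each overlapped between the groups, whereas Kl did not (10.7 to 14.1 against 4.15 to 10.2 CPM), as was the case for 8.22% of all genes. Kl was called as higher in NeuN+ than in NeuN- nuclei of sham mice (log2 fold change 1.97, FDR = 0.0133), so it did not mark choroid plexus alone here. The 3 genes summed to between 20.7 and 91.0 CPM in kainate and between 15.6 and 18.5 CPM in sham NeuN- libraries, with none at 0 in a group. None was called by either tool or had an unadjusted p below 0.05, while 2 of the 3 were called as higher with the block, which called 5.79% of all genes. Markers of oligodendrocytes and of their precursors overlapped between kainate and sham glia, with 3 of 4 and 2 of 2 called as lower with the block. The summed astrocyte markers (458 to 1787 CPM in kainate, 461 to 1599 CPM in sham) and microglia markers (415 to 1201 and 436 to 2224 CPM) overlapped as well in the NeuN- fraction. With the block Gfap was called as higher there (1.77), and Slc1a2 (-1.12) and P2ry12 (-2.10) as lower. In each of these 2 lists 0 were called without the block, 1 had an unadjusted p below 0.05 and DESeq2 called 1. Of the neuron markers Gad1 was called as higher with the block (0.87). The part of these cells in the Gal values was not tested.

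**Figure D2:**
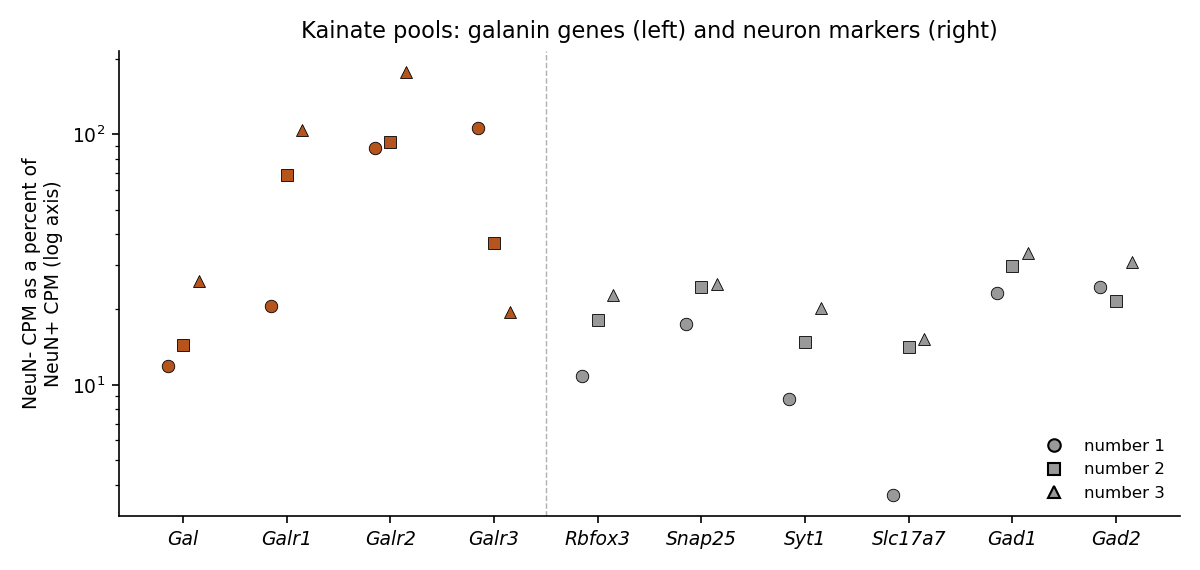
Level in the NeuN- library as a percent of that in the NeuN+ library of the same kainate pool (log axis), for the 4 galanin genes (orange) and 6 neuron markers (grey), with the marker shape giving the pool number. Gal, between 11.9% and 26.1%, lay among the neuron markers, while Galr2 lay between 88.2% and 177%.

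Whether kainate acted differently in the 2 fractions was tested as the difference of the effects. For Gal this difference was 3.39 on the log2 scale (SE 1.04, 95% confidence interval 1.15 to 5.62), larger in neurons, but it was not called (FDR = 1.00). In this test 0 of the 4 genes and 0.00246% of all genes were called, Gal alone had an unadjusted p below 0.05, and DESeq2, which gave an adjusted p to Gal alone, called 0. The block by number gave a difference of 2.90 (95% confidence interval 1.53 to 4.27, FDR = 0.0170), which was called, as were 1.94% of all genes, whereas with the pool as a block it was 3.28 (FDR = 0.676). With no block, the difference of Gal turned to -0.11 without sham NeuN- replicate 3 and was 4.25 without sham NeuN- replicate 1. For the receptors the difference was -0.27 (Galr1), -0.90 (Galr2) and -0.53 (Galr3), each with a confidence interval on both sides of 0. These values changed with the sham NeuN- library left out, being -2.06, -5.40 and -5.53 without replicate 3 and 0.47, 0.03 and 0.37 without replicate 1, and none was called. The difference was 0.65 for Galr1 and 0.26 for Galr2 without kainate NeuN- replicate 3. Without sham NeuN- replicate 3, sham glia rest on 1 count of Galr2 and 0 of Galr3, so those values have no reliable size.

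Between the fractions, Gal was called as higher in neurons than in glia in kainate mice and was not called in sham mice, and the test of that contrast is the difference given above. In kainate mice the log2 fold change between NeuN+ and NeuN- nuclei was 2.57 (SE 0.68, 95% confidence interval 1.11 to 4.03), a 5.94-fold higher level in neurons (FDR = 0.0257). The 3 kainate NeuN+ libraries were all above the 3 kainate NeuN- libraries, as was the case, in either direction, for 31.1% of all genes and for none of the receptors. In this comparison 1 of the 4 genes and 20.7% of all genes were called, and with the pool as a block again 1 of 4 (Gal, FDR = 0.000476) and 49.3%. In sham mice the log2 fold change was -0.82 (SE 0.81, 95% confidence interval -2.55 to 0.91), with the 2 sham NeuN- values on either side of those of neurons (FDR = 0.705). Here 0 of the 4 genes were called against 16.7% of all genes, 0 by DESeq2, which gave Galr3 no adjusted p, and 0 at an unadjusted p below 0.05, 0 were called with the pool as a block against 34.0%, and for 0 of 4 the groups did not overlap against 26.9%. Without sham NeuN- replicate 3, the library with 29 counts, the sham difference of Gal was 2.69 (FDR = 0.192), and without sham NeuN- replicate 1 it was -1.66 (FDR = 0.162), so that it was called in opposite directions with either library alone. The sham differences of the receptors were 2.56 for Galr1, 5.0004 for Galr2 and 6.79 for Galr3 without sham NeuN- replicate 3. They were 0.039, -0.42 and 0.89 without sham NeuN- replicate 1. In the former fit sham glia were replicate 1 alone, with 6 counts of Galr1, 1 of Galr2 and 0 of Galr3. The values of Galr2 and Galr3 there have no reliable size. The order of the groups was therefore kainate neurons, kainate glia, sham glia and sham neurons, in which the last 2 did not differ beyond their spread when all libraries were used and kainate and sham glia were called as different with the block, by DESeq2 and without sham NeuN- replicate 3, and not otherwise.

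Among the 15 neuropeptide genes listed, Gal was at the bottom per kb in sham neurons and in the upper part in kainate neurons. Precursor genes kept in other lists were lower than Gal in sham neurons, at 0.244 (Galp), 0.117 (Pmch), 0.374 (Hcrt) and 0.512 (Pomc) CPM per kb. Others there were higher, at 2.33 (Spx), 2.79 (Agrp), 1.07 (Oxt) and 1.04 (Avp). In sham neurons the mean of Gal, 0.527 CPM per kb of exon from few counts, ranked 15 of the 15 listed. It was at percentile 36.2 of all genes tested. In kainate neurons it was 30.0 CPM per kb, which ranked 6 of 15 and was at percentile 95.6. The 5 above it were Sst (161 CPM per kb), Npy (145), Trh (112), Cck (108) and Penk (102), the precursors of somatostatin, neuropeptide Y, thyrotropin-releasing hormone, cholecystokinin and the enkephalins. In glia the rank of Gal was 13 in sham and 6 in kainate libraries, at 0.953 and 5.04 CPM per kb. Of the 14 other neuropeptide genes, all of which passed the filter, 1 was called in neurons (Trh, log2 fold change 6.32, FDR = 0.0679), with 3 at an unadjusted p below 0.05 and 3 called by DESeq2, and 0 in glia, where 2 had an unadjusted p below 0.05 and DESeq2 called 1. Their median log2 fold change was 0.42 in neurons and 0.20 in glia, against -0.01 and 0.02 over all genes tested, and 12 of the 14 were above 0 in neurons. Of all genes 0.165% were called in neurons and 0.101% in glia. With the block 4 of the 14 were called as higher in neurons and 3 in glia, against 5.09% and 5.79% of all genes in either direction. Those in neurons, named after their values were seen, were Trh (6.25 on the log2 scale), Npy (2.64), Penk (2.14) and Crh (1.53), the last of which encodes corticotropin-releasing hormone, and those in glia were Trh (3.99), Npy (2.14) and Penk (1.18).

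**Figure D3:**
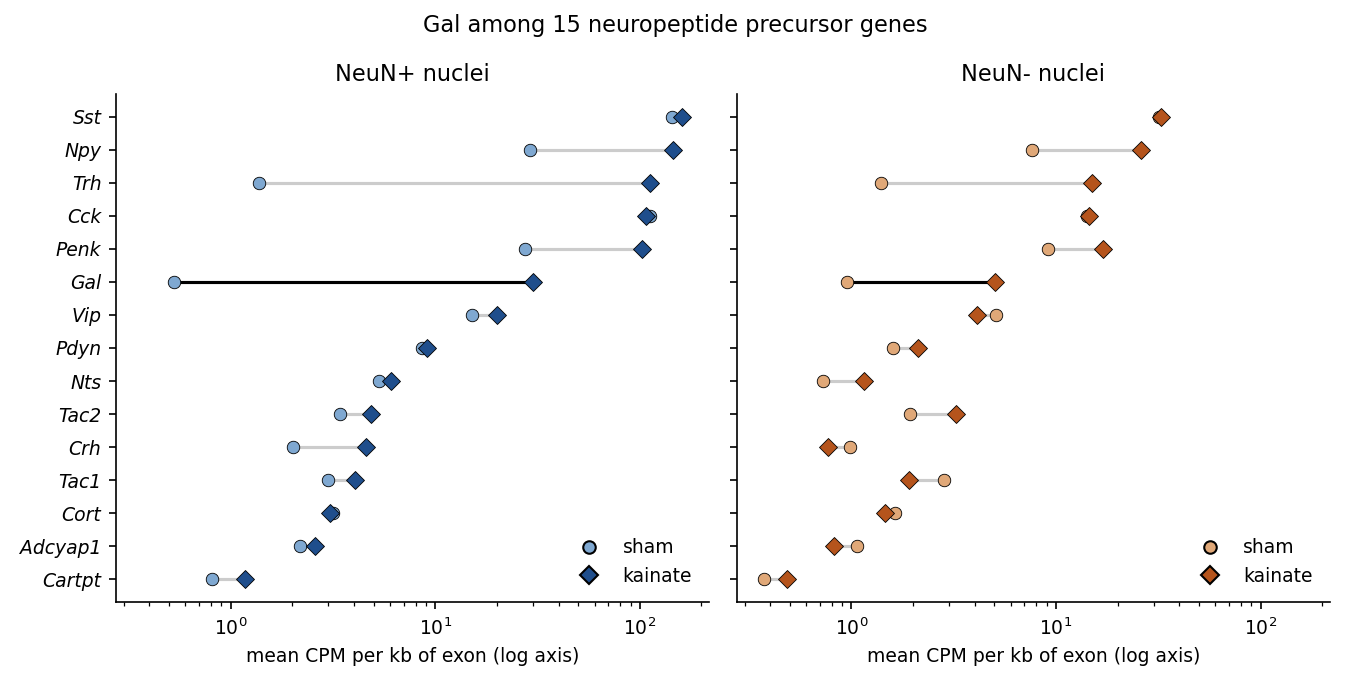
Mean CPM per kb of exon (log axis) of 15 neuropeptide precursor genes in sham (circles) and kainate (diamonds) libraries of each fraction, ordered by the level in kainate neurons. The black line joins the values of Gal, which went from 0.527 to 30.0 CPM per kb in neurons and from 0.953 to 5.04 in glia.

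The genes whose pattern was most like that of Gal over the 11 libraries, by Pearson correlation of log2(CPM + 0.5), were Trh (r = 0.98), Ccn4 (r = 0.97), Medag (r = 0.94), Sdc1 (r = 0.93) and Etv3l (r = 0.93). These points share pools, sorting and depth, and the values are descriptive. Trh stayed at place 1 by Spearman correlation (rho = 0.98) and after the mean of each fraction was removed (r = 0.98). Its mean was 155 CPM in kainate neurons, 1.90 in sham neurons, 20.8 in kainate glia and 1.93 in sham glia. Sdc1, which encodes the proteoglycan syndecan-1, had 44.2, 1.81, 17.5 and 5.99 CPM in the same order.

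Galr1, which encodes the receptor coupled to Gi/o, did not differ between kainate and sham beyond the spread between libraries. It had 30, 118 and 75 counts in kainate NeuN+ replicates 1, 2 and 3, or 2.13, 3.01 and 3.38 CPM. In sham NeuN+ replicates 1, 2 and 3 it had 43, 77 and 55 counts, or 2.89, 2.21 and 1.77 CPM. Replicate 1 was the lowest of the kainate and the highest of the sham neurons, and the groups overlapped. The log2 fold change in neurons was 0.32 (95% confidence interval -1.26 to 1.89, FDR = 1.00), or 0.34 (-0.48 to 1.16) with the block. In glia Galr1 had 0.439, 2.07 and 3.51 CPM in kainate replicates 1, 2 and 3 and 0.383 and 2.28 CPM in sham replicates 1 and 3. Both libraries numbered 1 were thus below the other 3 whatever the treatment, and the log2 fold change was 0.59 (95% confidence interval -1.21 to 2.40, FDR = 1.00). This direction turned without sham NeuN- replicate 1 (-0.15), without kainate NeuN- replicate 3 (-0.34) and without both libraries of low input (-0.17). It was larger, and not called, without kainate NeuN- replicate 1 (1.02) and without sham NeuN- replicate 3 (2.38, FDR = 0.280). Its group means ran from 2.84 CPM in kainate neurons over 2.29 in sham neurons and 2.01 in kainate glia to 1.33 in sham glia, and no neighbours in this order differed beyond their spread.

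Galr2, which encodes the receptor that also couples to Gq, varied widely between libraries of one group. In kainate NeuN+ replicates 1, 2 and 3 it had 9, 97 and 64 counts, or 0.640, 2.47 and 2.88 CPM. In sham NeuN+ replicates 1, 2 and 3 it had 13, 97 and 89 counts, or 0.873, 2.79 and 2.87 CPM. The kainate and sham values were close within each number, and the log2 fold change was -0.12 (95% confidence interval -2.25 to 2.00, FDR = 1.00). With a NeuN+ library left out it ranged from -0.49 to 0.29, above 0 without kainate replicate 1 and without sham replicates 2 or 3. With the block the interval narrowed to -1.02 to 0.69 around -0.16, so a rise of Galr2 in neurons beyond 1 on the log2 scale lay outside it. In glia Galr2 had 9, 68 and 182 counts in kainate replicates 1, 2 and 3, or 0.564, 2.31 and 5.11 CPM, and 1 and 61 counts in sham replicates 1 and 3, or 0.0639 and 3.02 CPM. The log2 fold change in glia was 0.78 (95% confidence interval -1.66 to 3.22, FDR = 1.00). It was 1.21 with the block (FDR = 0.474), -0.15 without sham NeuN- replicate 1, -0.41 without kainate NeuN- replicate 3 and 5.27 without sham NeuN- replicate 3 (FDR = 0.236).

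The 4 libraries numbered 1, 1 in each group, all had less Galr2 than the other 7. They ranged from 0.0639 to 0.873 CPM and the others from 2.31 to 5.11 CPM, a separation that 12.4% of all genes tested showed in the same direction. It was not shown by Gal, Galr1 or Galr3. Of the 4 libraries, sham NeuN- replicate 1 had the low RNA input and the other 3 did not. The part of the sequencing instrument was not tested, as the paper's methods do not give it for each library. The group means of Galr2 ran from 2.66 CPM in kainate glia over 2.18 in sham neurons and 2.00 in kainate neurons to 1.54 in sham glia, and no neighbours differed beyond their spread. Between NeuN+ and NeuN- nuclei the log2 fold change was 0.49 (95% confidence interval -1.94 to 2.92) in sham and -0.41 (95% confidence interval -2.54 to 1.71) in kainate mice, the latter being 0.33 without kainate NeuN- replicate 3.

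Galr3 was near the limit of detection. It had 5, 29 and 16 counts in kainate NeuN+ replicates 1, 2 and 3 (0.356, 0.739 and 0.721 CPM) and 4, 18 and 25 counts in sham NeuN+ replicates 1, 2 and 3 (0.269, 0.517 and 0.806 CPM). In kainate NeuN- replicates 1, 2 and 3 it had 6, 8 and 5 counts (0.376, 0.271 and 0.141 CPM), and in sham NeuN- replicates 1 and 3 it had 0 and 6 counts. The 0 allows a level of up to 0.192 CPM, taken as 3 counts, for counting error only. Values of neurons were above those of glia in most but not all libraries, with log2 fold changes of 1.76 (95% confidence interval -0.87 to 4.39, FDR = 0.556) in sham and 1.23 (95% confidence interval -0.94 to 3.41, FDR = 0.522) in kainate mice. The latter was called by edgeR's newer quasi-likelihood method (FDR = 0.195). The kainate effect was 0.18 (95% confidence interval -1.92 to 2.29) in neurons and 0.71 (95% confidence interval -1.89 to 3.32) in glia, and changes of either sign within these intervals were not detectable at this depth. In glia the effect on Galr3 was -0.19 without sham NeuN- replicate 1 and -0.24 without both libraries of low input. Without sham NeuN- replicate 3 the fit gave 5.71, but the sham library left had 0 counts, so this value has no reliable size. In neurons the effect was -0.11 without sham NeuN+ replicate 1, 0.44 without kainate NeuN+ replicate 1 and 0.61 without sham NeuN+ replicate 3. Its group means ran from 0.605 CPM in kainate neurons over 0.530 in sham neurons and 0.263 in kainate glia to 0.149 in sham glia.

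**Figure D4:**
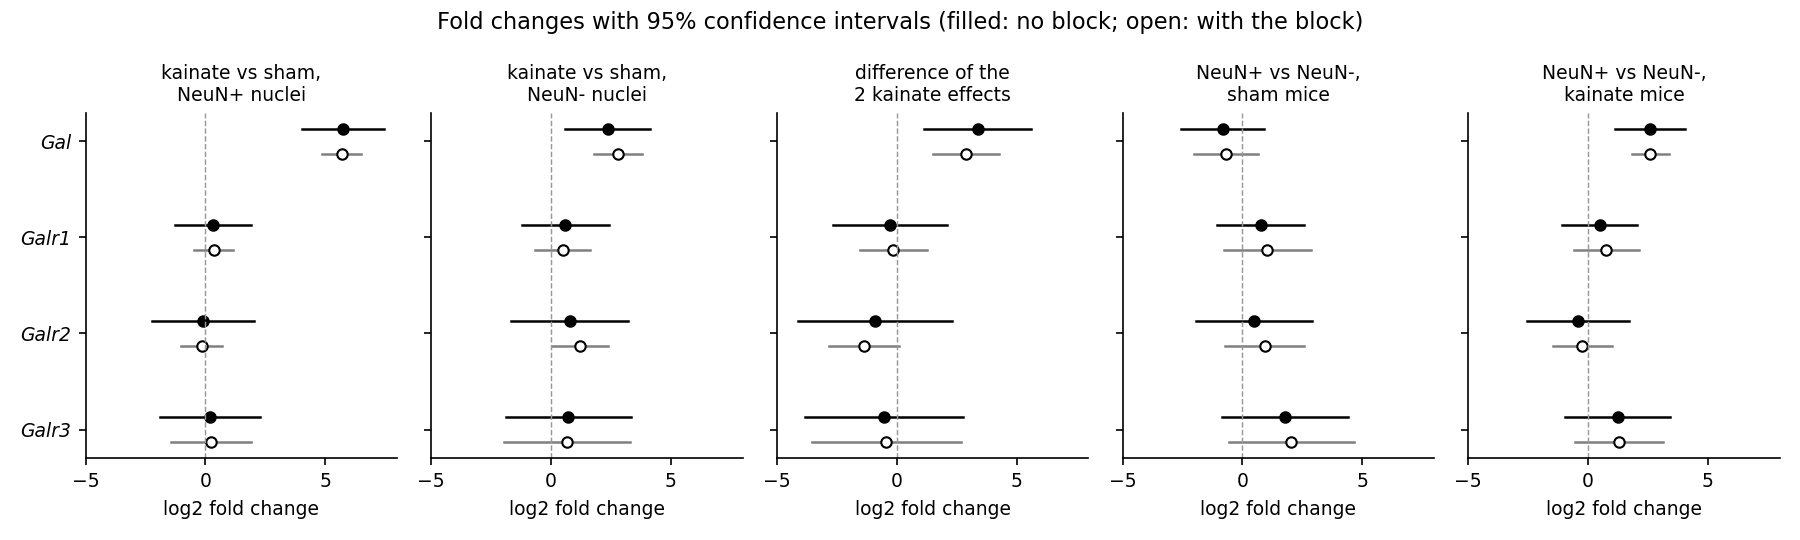
Log2 fold changes (points) and 95% confidence intervals (lines) of the 4 genes in 5 comparisons, without a block (filled) and with the replicate number or, between fractions, the pool as a block (open). Gal in neurons stood at 5.74 and its interval excluded 0 in both fractions and for their difference, and the receptor intervals included 0 in every comparison except that of Galr2 in glia with the block (0.02 to 2.39).

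Per kb of exon the receptors were near or below the median of all genes tested in neurons, and Galr3 was the lowest of the 3 in the mean of every group. This order did not hold in every library, as Galr3 had the largest share of the summed receptor level in kainate NeuN- replicate 1 (44.5%, from 6 counts). In kainate neurons the means were 0.951 (Galr1), 0.814 (Galr2) and 0.486 (Galr3) CPM per kb, at percentiles 50.2, 47.1 and 35.0 of all genes tested. In sham neurons they were 0.767, 0.886 and 0.426 CPM per kb. In glia they were 0.672, 1.08 and 0.211 in kainate and 0.446, 0.629 and 0.119 in sham libraries, where Galr2 had the highest mean and the spread between libraries was wide. Galr1 made up 56.7% and 62.9% of the summed receptor level in kainate and sham NeuN+ replicate 1, and between 24.6% and 39.2% in the other 4 NeuN+ libraries. The ratio of Gal to the summed receptor level was between 9.20 and 30.3 in kainate neurons and between 0.111 and 0.374 in sham neurons. The ratio lay between 1.98 and 6.68 in kainate glia and was 0.525 and 0.817 in sham glia. The 0.111 of sham NeuN+ replicate 1 rests on 2 counts of Gal and the 0.525 of sham NeuN- replicate 1 on 1 count, too few for a reliable ratio. Over the 11 libraries the receptors most alike were Galr1 and Galr2 (Pearson r = 0.76, Spearman rho = 0.70 over libraries that share pools and sorting), while Gal and the receptors had r between 0.23 and 0.39.

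The genes most like Galr1 over the libraries were Mmel1, Wfdc3, Mei1, Ntf5 and Trpc7 (r = 0.97 to 0.95). Those most like Galr2 were Cndp1, Gm5149, Muc2, Gm18697 and Klk13 (r = 0.98 to 0.97), and those most like Galr3 were Mir5620, Gm37224, Mir6419, Gm37537 and Gm21955 (r = 0.94 to 0.89). The order depended on the measure, since by Spearman correlation the 5 genes of Galr2 fell to places between 224 and 1811.

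Of the related ligands and receptors, spexin, the ligand of GALR2 and GALR3 encoded by Spx and named here after its values were seen, had 6.36 ± 0.368 CPM in kainate and 4.13 ± 0.421 CPM in sham neurons (SD, n = 3 each), with no overlap, as was the case for 7.86% of all genes. Its log2 fold change was 0.62 and was not called (FDR = 1.00). Galp, Kiss1r and Gpr151 were the other genes of this list that passed the filter, and 0 of the 4 was called in either fraction, against 0.165% and 0.101% of all genes, while Kiss1 was not analysed here. At an unadjusted p below 0.05 there were 0 in neurons and 1 in glia, and DESeq2 called 0 and 1. Their median log2 fold change was 0.15 in neurons and 0.33 in glia. Gpr151, an orphan receptor related in sequence to the galanin receptors and named here after its values were seen, was called with the block in neurons (7.38 ± 3.49 against 3.02 ± 2.33 CPM, FDR = 0.00710) and in glia (5.54 ± 2.71 CPM, n = 3, against 0.684 ± 0.154 CPM, n = 2, FDR = 0.000253), in fits that called 5.09% and 5.79% of all genes. Kiss1r, the kisspeptin receptor, named for its CPM over all libraries, had 13.9 CPM in kainate and 17.3 CPM in sham neurons.

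Without the block, the genes that carry the signal of the receptors did not pass the test with kainate. Of 7 G protein alpha subunits of the Gi/o and Gq families, 0 were called in either fraction, with median log2 fold changes of -0.06 in neurons and -0.20 in glia. Gnao1, which encodes the alpha subunit of Go, was named for its CPM over all libraries. None of the 7 had an unadjusted p below 0.05 or was called by DESeq2. Of 14 effectors (GIRK potassium channels, adenylyl cyclases and phospholipase C beta), 0 were called by either tool, 1 had an unadjusted p below 0.05 in each fraction, and the medians were -0.20 and -0.26. Adcy1, an adenylyl cyclase named for its CPM over all libraries, had 265 ± 87.2 CPM in kainate and 543 ± 60.6 CPM in sham neurons (SD). Its log2 fold change of -1.04 was not called without the block and was called with it (-1.09, FDR = 2.98e-05). With the block 0 of the 7 G protein genes and 3 of the 14 effectors, all lower, were called in neurons, and 1 of each list, also lower, in glia, against 5.09% and 5.79% of all genes called in those fits. Of 12 genes for prohormone processing and dense core vesicles, through which galanin is cut and stored, 0 were called, with medians of 0.26 in neurons and -0.09 in glia. At an unadjusted p below 0.05 there were 4 in neurons and 2 in glia, and DESeq2 called 3 and 1. With the block 4 were called as higher and 1 as lower in neurons, and 2 as higher and 1 as lower in glia. Cpe, carboxypeptidase E, was named for its CPM over all libraries. In sham mice 8 of these 12 genes were called as higher in neurons than in glia, where 16.7% of all genes were called in either direction.

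Of 13 genes of cytokine and transcription factor pathways known to act on galanin expression, 3 were called as higher in kainate neurons, where 0.165% of all genes were called in either direction. They were Atf3 (log2 fold change 3.41, FDR = 0.0566), Clcf1 (2.61, FDR = 0.137) and Fos (3.09, FDR = 0.150), that is, a stress-induced and an activity-induced transcription factor and a cytokine of the interleukin 6 family. In glia Fos (5.67, FDR = 0.0763) and Atf3 (4.03, FDR = 0.0763) were called, against 0.101% of all genes, and 0 of the 13 were called as lower in either fraction. At an unadjusted p below 0.05 there were 7 in each fraction, and DESeq2 called 3 in neurons and 5 in glia. The median log2 fold change was 1.00 in neurons and 1.64 in glia, against -0.01 and 0.02 over all genes. With the block 8 of the 13 were called as higher in each fraction and 1 as lower in glia, against 5.09% and 5.79% of all genes. The list was chosen with results of these libraries known, so its direction is not independent of them. Stat3, the transcription factor below the interleukin 6 family of receptors, named for its CPM over all libraries, had 149 ± 13.6 CPM in kainate and 56.9 ± 30.8 CPM in sham neurons (SD, n = 3 each, log2 fold change 1.39, FDR = 1.00), and was called with the block (1.51, FDR = 1.08e-07). Lif, a cytokine of the same family also named after its values were seen, had 81.2 ± 37.5 CPM in kainate glia (SD, n = 3) and 7.21 ± 2.70 CPM in sham glia (SD, n = 2), with a log2 fold change of 3.49 that was not called (FDR = 1.00) without the block and was called with it (3.07, FDR = 2.94e-09).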

How the data were processed

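Total RNA of sorted hippocampal nuclei was amplified with an oligo-dT kit that does not mark strand. Per the labels and methods, reads were trimmed (Trim Galore 0.4.3), aligned to mm10 with Rsubread, and assigned to GENCODE M16 genes by featureCounts. The authors deposited the raw counts, whole numbers for 53379 genes in 11 libraries, and left out 1 sham NeuN- library whose preparation had failed. Bisulfite samples were not used here.

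Rows with no gene symbol (105) were dropped. Of the rest, 40714 genes passed filterByExpr at a minimum count of 10 and a minimum total of 15. edgeR 4.0.16 in R 4.3.3 was used with TMM factors, the quasi-likelihood test (legacy=TRUE) and the Benjamini-Hochberg method over all genes tested. One model with 4 group means held all libraries, because sham NeuN- has 2, and a separate fit per fraction was an alternative. Exon lengths and coordinates came from GENCODE M21 on the same assembly. With 200 genes shifted by 4 (log2) in simulated counts, the test recovered 97.5% (NeuN+, 37750 genes tested) and 96% (NeuN-, 37252 genes). Of its calls at an FDR below 0.25, 21.7% and 17.9% were false. These shares hold for that shift in the simulated counts and are not the power for the libraries used here. Smaller shifts and genes with few counts, such as Galr3 and Gal in sham libraries, were not tested separately. Counting limits cover counting error only, and p-values measure the spread between pools.

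Kainate and sham libraries with one number deviated together from their group means to unlike degrees (correlations 0.744, 0.154 and 0.593 in NeuN+ and 0.827 and 0.839 in NeuN-). As sham NeuN- has 2 libraries, their deviations mirror each other, so 0.827 and 0.839 are not independent. Pairs with unlike numbers were not set beside these. NeuN+ and NeuN- libraries with one number come from one pool (0.326 to 0.699). Blocks were fitted by number within a fraction and by pool as alternatives. The block by number rests on these same counts and not on the labels.

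Other alternatives were DESeq2 1.42.0 (size factors or Wald test), filters on low counts, genes tested, robust and newer edgeR fits, FDR below 0.05, RNA input and leaving out each library. Genes named are the 4 members, list genes called in a kainate comparison (up to 4 per list by p), the list gene with the highest mean CPM over the 11 libraries, the 5 genes most correlated with each member, and a few genes chosen after seeing their values, as stated beside each. The members and lists were chosen with earlier results of these data known.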

Additional observations from a re-analysis of the deposited data

Results flagged for a closer look

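The kainate effect on Gal was larger in NeuN+ than in NeuN- nuclei by 2.90 on the log2 scale with the replicate number as a block (edgeR, FDR = 0.0170), so that the effects in the fractions were called as different. Without the block the difference was 3.39 (FDR = 1.00), and with the pool as a block it was 3.28 (FDR = 0.676), neither of which was called. In each fraction 3 of 3 kainate libraries lay above every sham library. The difference rested on 2 sham NeuN- libraries with 1 and 29 counts of Gal. It was -0.11 (FDR = 0.949) without sham NeuN- replicate 3 and 4.25 (FDR = 1.00) without sham NeuN- replicate 1, both fitted without the block.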

How the results depend on the processing

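The increase of Gal in NeuN+ nuclei kept its direction in 24 of 24 alternatives and was called in 23, the exception being without sham NeuN+ replicate 2, and ranged from 5.41 to 6.32 (log2) when a library was left out. The higher level of Gal in NeuN+ than in NeuN- nuclei of kainate mice was called in 23 of 23. In NeuN- nuclei the kainate effect on Gal was called by DESeq2's Wald test (2.30), with the replicate number as a block (2.78) and without sham NeuN- replicate 3, and ranged from 1.49 to 5.84 with a library left out. That block also called the difference between the fractions (2.90), and neither block changed another call of the 4 genes. The kainate effect on Galr2 in NeuN- nuclei ranged from -0.41 to 5.27 with a library left out, called at 5.27. Between NeuN+ and NeuN- nuclei of sham mice the ranges were -1.66 to 2.69 for Gal, reversed to 2.69 without sham NeuN- replicate 3, 0.039 to 2.56 for Galr1, -0.42 to 5.0004 for Galr2 and 0.89 to 6.79 for Galr3, with the highest value called each time. Without both libraries of low RNA input that of Gal was -1.66 and called. The newer quasi-likelihood method called Galr3 as higher in NeuN+ nuclei of kainate mice (1.44). Leaving out a sham NeuN- library leaves 1, which is taken to vary like the other groups. Replicate 1 alone had 1 count of Galr2 and 0 of Galr3, so the values of these genes without replicate 3 have no reliable size.

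Of all genes, 67 were called in NeuN+ and 41 in NeuN- nuclei, against 2072 and 2357 with the replicate block, 360 and 254 by DESeq2, 390 and 0 in separate fits, 212 and 89 among genes with an Entrez identifier, 137 and 67 at a CPM of at least 1 in 3 libraries, 136 and 73 by the newer method, 41 and 22 with RNA input as a covariate and 8 and 1 at an FDR below 0.05. With a library left out they ranged from 5 to 176 and from 1 to 2812, the last without sham NeuN- replicate 3, and 1 gene was called in NeuN- nuclei without both low-input libraries. The cause of these changes was not tested. No gene of the 4 was removed by the filter, so the permutation test planned for that case was not run, while a CPM of at least 1 in 3 libraries gave no value for Galr3, DESeq2 gave no adjusted p to some receptor comparisons, and a separate fit per fraction none to Galr3 in NeuN- nuclei. Few counts limit Galr3 and the sham values of Gal, and 2 or 3 pools a group limit every comparison.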
